A study of Mus musculus with 18 samples.

Results

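Mouse gastruloids are aggregates of embryonic stem cells that break symmetry, elongate and form tissues of the trunk, among them spinal cord-like neural tissue and somites, the blocks of mesoderm beside the neural tube. The RNA of such aggregates at day 5 was compared between cultures treated with doxycycline (Dox) and untreated controls. The cells were RHKI, a single engineered derivative of the E14Tg2a embryonic stem cell line in which Dox switches on a knocked-in, HA-tagged copy of Rnaseh1. RNase H1 is the enzyme that cuts the RNA strand of an RNA:DNA hybrid and thereby removes R-loops, structures in which a nascent RNA stays paired with its template. The study's title links R-loops to H2A.Z, a histone variant found at promoters and enhancers, and to the allocation of lineages during differentiation.

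The comparison took its libraries by the labels: 3 Dox and 3 control libraries of day 5 (120 h), which are 6 of the 18 libraries in the series. The other 12 libraries are the same 2 treatments at day 0 and day 3. Both groups carried the same knock-in, had been kept in 2i/LIF medium before aggregation, and differed by Dox at 500 ng/ml for 48 h before differentiation; the labels do not say whether Dox stayed on afterwards. Each library is poly(A) RNA from whole aggregates, so a fall in a gene's level can mean fewer cells of a type or less RNA per cell, and these cannot be told apart. Levels are given as counts scaled to library size (CPM, as edgeR defines it), and each difference as a log2 fold change of Dox over control with its standard error (SE). "Rose" and "fell" are used for genes with an adjusted p under 0.05 in edgeR's quasi-likelihood test with Benjamini-Hochberg adjustment over all genes tested. Nothing in the labels says that replicates were separate cultures, and so the p-values speak only to the spread among the libraries at hand.

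Rnaseh1 (ENSMUSG00000020630, chr12:28649602-28659589 in GRCm38) matched the labels in every library. It stood at 20.4, 21.2 and 20.6 CPM in the control libraries and at 56.5, 60.1 and 63.3 CPM in the Dox libraries. It rose 2.89-fold (log2 1.53, SE 0.056, adjusted p = 7.7e-07), and the deposited values do not separate the knocked-in from the native transcript. Hprt, the purine salvage enzyme on chromosome X, stood at 21.3, 22.4 and 21.2 CPM in controls and 191, 218 and 218 CPM with Dox. That 9.66-fold rise (adjusted p = 3.9e-09) had the smallest adjusted p of the genes described here. The deposited values are gene totals, so for Hprt too they do not show which transcripts gave the rise.

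All 7 neural markers checked (Sox1, Sox2, Sox3, Pax6, Nes, Tubb3 and Elavl3) and all 4 somite markers (Meox1, Tcf15, Uncx and Pax1) averaged above 1 TPM (the deposited length-scaled transcript level) in at least 1 group at day 5. The summed TPM of the neural markers was 766 to 793 in controls and 774 to 809 with Dox. Somite markers summed to 85.3 to 98.6 TPM in controls and to 58.2 to 77.4 TPM with Dox, with no overlap between the groups. No marker of presomitic mesoderm, heart, endothelium, blood, neural crest, surface ectoderm, extraembryonic tissue or germ cells had a mean above 1 TPM, and Msgn1, Hbb-y, Hba-x, Krt14, Elf5 and Prl3d1 were at 0 in both groups. Pluripotency markers summed to 4.84 to 8.87 TPM in controls and 7.92 to 12.5 TPM with Dox, and none of the 4 passed the test. Libraries held 28025314 to 37393018 counts, and the first principal component (39.9% of the variance) placed all 3 controls, at -23.54 to -15.38, apart from all 3 Dox libraries, at 12.33 to 24.84. Dox replicate 1 lay nearest to the controls on it.

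At day 5, 1628 of 15340 genes tested (10.6%) differed between the groups. With Dox 849 genes rose, 5.53% of those tested, and 779 fell, 5.08%. Most differences were small: the median size among the genes called was 0.4 on the log2 scale, and 226 genes changed by a log2 of at least 1 (125 higher, 101 lower). Libraries of the groups did not overlap for 1626 of the genes called, against 29% of all genes tested. Where the absence of overlap is given below for a called gene, it therefore describes the values and adds no evidence to the call. Of the 1628 calls, 670 held when any 1 library was left out; with 1 left out, 728 genes were called without control replicate 3, while dropping Dox replicate 2 gave 872 and dropping Dox replicate 3 gave 786. A fit pairing the libraries by replicate number called 2658 genes (1282 higher, 1376 lower), and one sharing its spread over all 18 libraries called 843. Gene groups are described below by the members called, beside the 10.6% called among all genes, and by the group's median log2 fold change, which over all genes tested was 0.00252.

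**Figure D1:**
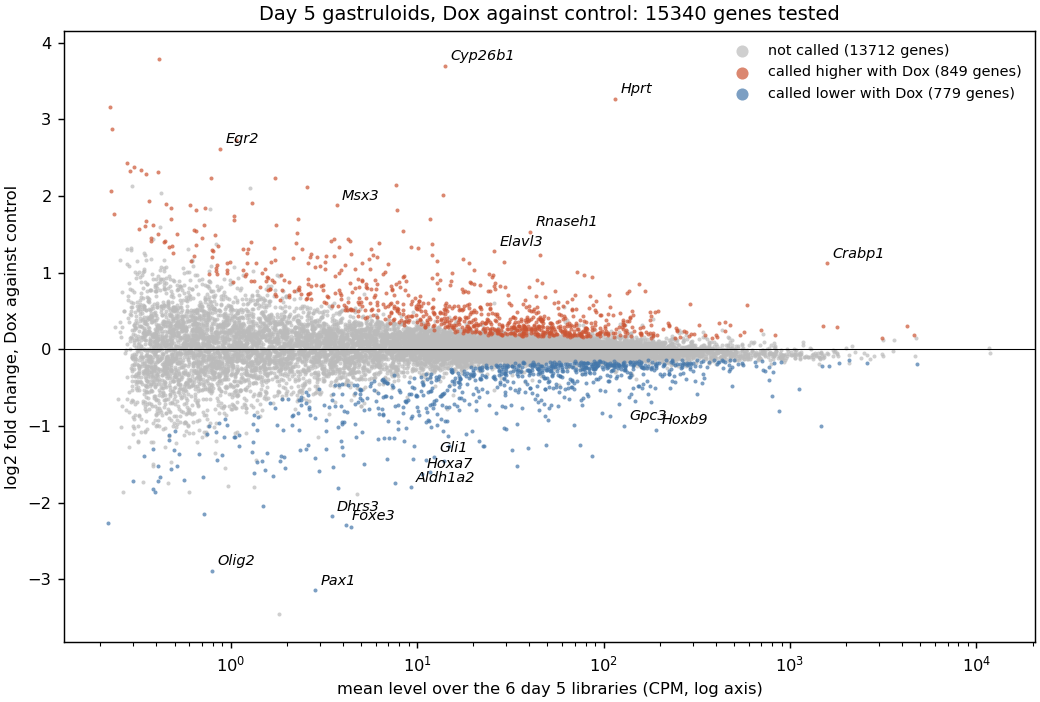
Log2 fold change of Dox over control against the mean level over the 6 day 5 libraries (CPM, log axis), 1 point per gene tested. Red points are the 849 genes called higher and blue points the 779 called lower; Cyp26b1 and Pax1 lie near the extremes among the labelled genes.

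The largest rises among genes averaging at least 5 CPM in their higher group were of Cyp26b1, which encodes an enzyme that degrades retinoic acid, and among the next were Hprt, Slc44a5, Msx3, Grm4, Atp1b2, Rnaseh1, Arsi, Dcc, Lix1 and Pde1b. Slc44a5, a choline transporter-like gene, rose 4.03-fold, from 5.16, 5.59 and 5.63 to 20.8, 21 and 24.2 CPM (log2 2.01, SE 0.089). Grm4, a metabotropic glutamate receptor, rose 3.52-fold, Atp1b2, a sodium pump subunit of neural cells, 2.91-fold, and Dcc, the netrin receptor that guides axons, 2.7-fold. The largest falls were of Pax1, Col12a1, Foxe3, Dhrs3, Hoxc8, Aldh1a2, Hoxaas3, Hoxa7, Cabp1, Nkx1-2, Hoxb5os and Kcnb2. Pax1, the transcription factor of the sclerotome (the somite part that forms vertebrae), went from 4.8, 5.19 and 5.31 CPM to 0.416, 0.639 and 0.666 CPM, 8.82-fold lower (log2 -3.14, SE 0.19, adjusted p = 1.6e-05). Foxe3, a forkhead factor known from the lens, went from 7.48, 6.92 and 6.39 to 1.41, 1.47 and 1.33 CPM. These genes were chosen among those called whose groups do not overlap, so that absence of overlap is no result; each call held when any 1 library was left out. Over the settings run, only Nkx1-2 lost its call, at an adjusted p of 0.087 in the fit of all 18 libraries. Hoxaas3 and Hoxb5os are antisense genes, and the strand setting of the authors' counting is not given, so their reads and those of their Hox partners may not be separated.

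**Figure D2:**
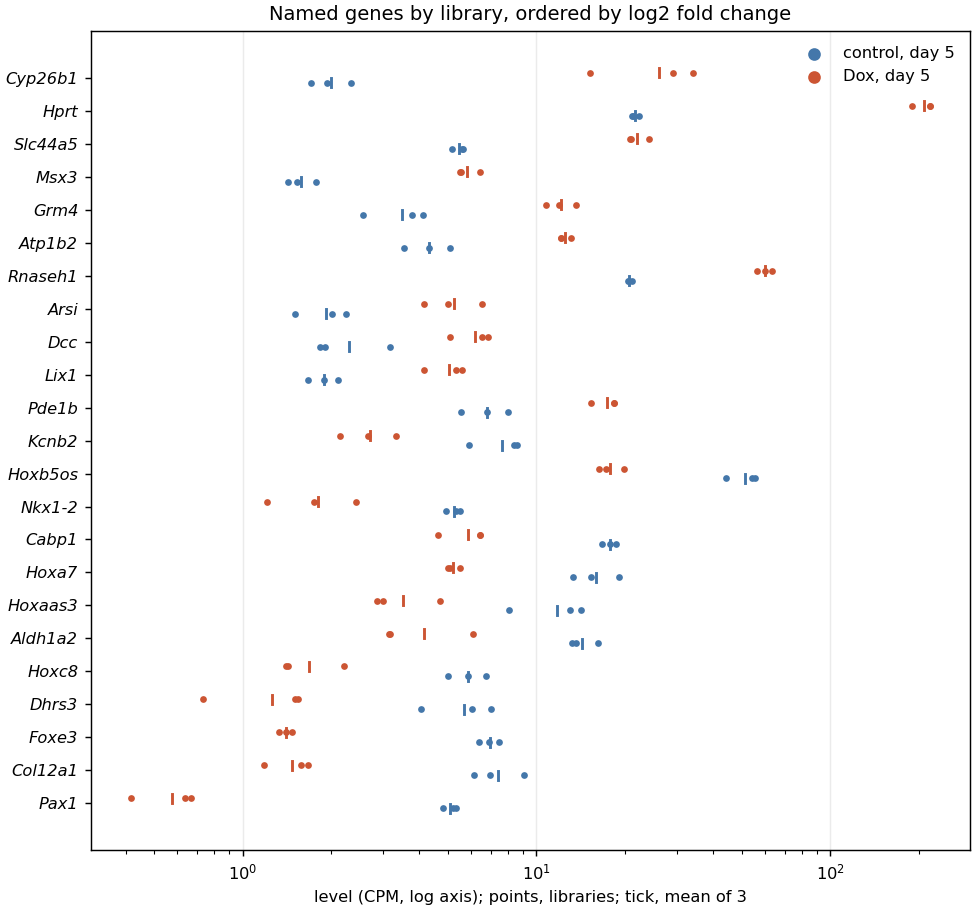
Levels in CPM (log axis) of 23 genes with the largest changes, 1 point per library and a tick at the mean of 3. The 3 control points (blue) and the 3 Dox points (red) of each row lie apart, which the choice of genes required; the Dox points of Cyp26b1 run from 15.2 to 34.2 CPM.

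Genes of the retinoic acid pathway changed in both directions. Retinoic acid is made from vitamin A in somites, diffuses into the neural tube, acts through nuclear receptors and specifies hindbrain and spinal cord levels; CYP26 enzymes clear it. Of 23 genes fixed for the pathway 22 were tested, 5 rose and 8 fell. Cyp26b1 (chr6:84571414-84593908, minus strand) stood at 1.93, 1.71 and 2.35 CPM in controls and 15.2, 29.1 and 34.2 CPM with Dox, 13-fold higher (log2 3.70, SE 0.30, adjusted p = 9.1e-05). The lowest Dox library was thus still above every control. Aldh1a2 (chr9:71215789-71296243), the main enzyme that synthesises retinoic acid in the trunk, stood at 13.2, 13.6 and 16.2 CPM in controls and 6.09, 3.16 and 3.18 CPM with Dox, 3.48-fold lower (log2 -1.80, SE 0.21, adjusted p = 0.00062). Dox replicate 1 again lay nearest the controls, without overlap. Dhrs3, a reductase that returns retinaldehyde to retinol and that retinoic acid induces, fell from 4.05, 6.02 and 7.01 CPM to 1.51, 0.735 and 1.54 CPM (log2 -2.18, SE 0.27).

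The cellular binding protein gene Crabp1 rose from 1053, 1057 and 878 CPM to 1936, 2295 and 2269 CPM (log2 1.12, SE 0.082, adjusted p = 5.2e-05). Its relative Crabp2 was at 1084, 1224 and 1144 CPM in controls and 1112, 1261 and 1220.1 CPM with Dox, which overlap (log2 0.06, SE 0.058). Stra6, the receptor that takes up retinol, rose by a log2 of 0.54 (adjusted p = 0.0012, and 0.055 in the fit of all 18 libraries). Among the receptors Rarb fell from 96.6, 91.6 and 96.6 to 67.8, 58.5 and 57.2 CPM (log2 -0.64, SE 0.065), and Rarg fell by 0.71, whereas Rara had a log2 fold change of 0.07 (SE 0.045, adjusted p = 0.4). The retinoic acid-responsive orphan receptor Nr2f2 rose by 0.50, and its paralogue Nr2f1 fell by 0.35 on the log2 scale. Of the 13 calls 10 held when any 1 library was left out; that of Meis1 (adjusted p = 0.051) was lost without Dox replicate 3 and that of Rxra (0.069) without control replicate 3.

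A DR5 element, the direct repeat with a spacer of 5 bases to which retinoic acid receptors bind, was searched for on both strands of the 250 bases before the annotated start of each tested gene with a promoter in the RefSeq table (10718 genes, GRCm38.p6). It was present in 6 promoters, 0.056% of them, and 2 of these belong to the 17 pathway genes with an entry, Rarb and Cyp26a1. Both are shown because they are the textbook targets through which the pathway regulates its own receptor and its own breakdown. Capitals mark the match, and each sequence is written 5′ to 3′ on the gene's strand, chr14:16575486-16575565 (minus) for Rarb and chr19:37697728-37697807 (plus) for Cyp26a1.
Rarb: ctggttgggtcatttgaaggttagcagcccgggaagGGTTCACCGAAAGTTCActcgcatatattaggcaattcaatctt
Cyp26a1: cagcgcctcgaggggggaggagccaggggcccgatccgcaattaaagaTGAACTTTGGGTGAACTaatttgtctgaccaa
Rarb, whose match is on the strand shown, fell as given above. Cyp26a1, whose match is on the opposite strand, was low in all libraries, at 0.465, 1.2 and 0.458 CPM in controls and 0.192, 0.0639 and 0.484 CPM with Dox, and did not pass the test (log2 -1.47, SE 0.6, adjusted p = 0.16). Cyp26b1 had no such match in its window.

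Hox genes, which set position along the body axis and are ordered in 4 clusters from anterior (low paralogue numbers) to posterior, were mostly lower with Dox. Of 39 Hox genes 25 were tested, 19 fell, 3 rose and 3 did not pass, with a median log2 fold change of -0.85. All 10 tested genes of paralogue groups 6 to 9 fell (median -1.12), 6 of 7 in groups 4 and 5 fell (median -0.77), and in groups 1 to 3 there were 3 rises, 3 falls and a median of -0.21. Hoxb9 went from 238, 262 and 273 CPM to 140, 120 and 113 CPM (log2 -1.05, SE 0.079, adjusted p = 5.6e-05). Hoxa7 went from 13.3, 15.4 and 19.1 to 5.06, 5.01 and 5.48 CPM (log2 -1.63), and Hoxc8 from 5.01, 6.72 and 5.85 to 2.21, 1.41 and 1.42 CPM (log2 -1.80). In each of these every Dox library lay under every control. Hoxb8 fell by 0.88 and Hoxc6 by 1.18 on the same scale.

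Among the anterior genes Hoxa2, at 41.5, 42.7 and 37.7 CPM in controls and 50.5, 55.4 and 59.2 CPM with Dox, and Hoxb2, at 84.3, 82.9 and 77.2 CPM against 101, 121 and 112 CPM, rose by 0.44 and 0.45. Both, like Hoxa3 (0.23), are genes of hindbrain segments. The rises were all in groups 2 and 3. Of the 22 calls 17 held when any 1 library was left out. Hoxa6, at under 1 CPM in every library, lost its call without any single library (adjusted p of 0.07 to 0.13) and by DESeq2 (0.17), and the other 4 (Hoxa3, Hoxb7, Hoxc9 and Hoxd3) lost theirs without control replicate 3 (0.052 to 0.11) or Dox replicate 2 (0.058 to 0.074), among others. In the fit of all 18 libraries no Hox gene was called higher (adjusted p of 0.33 for Hoxa2, 0.081 for Hoxb2 and 0.52 for Hoxa3) and 14 were called lower.

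**Figure D3:**
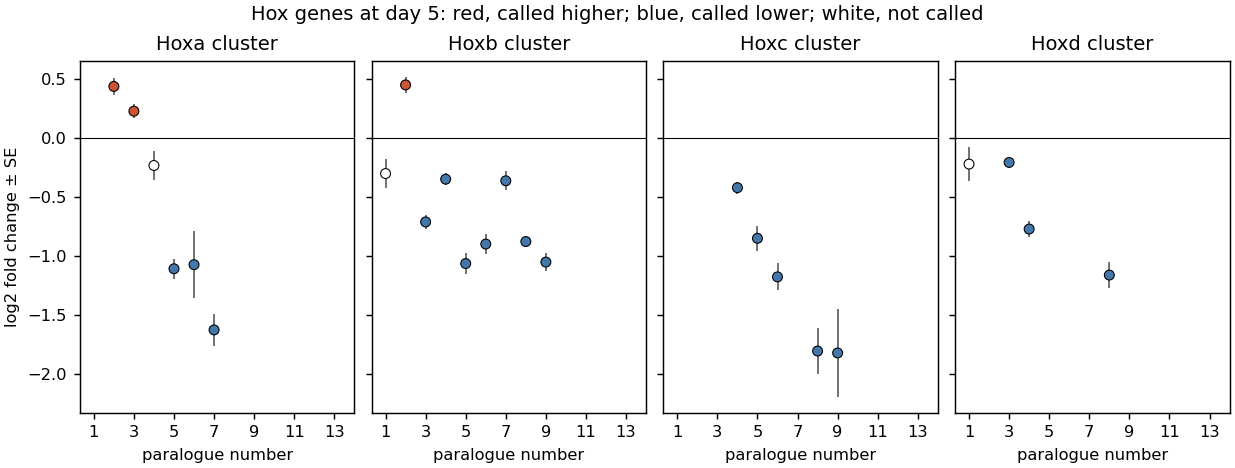
Log2 fold change (± SE) of 24 of the 25 tested Hox genes against paralogue number, 1 panel per cluster. Points for groups 6 to 9 all lie under 0, down to -1.82 for Hoxc9, and the 3 red points, called higher, are Hoxa2, Hoxa3 and Hoxb2.

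Of genes that mark the dorsoventral axis of the neural tube, the ventral ones were mostly lower and the dorsal ones mostly higher with Dox. Sonic hedgehog from notochord and floor plate induces ventral identities, and bone morphogenetic proteins and Wnts from the roof plate induce dorsal ones. Of 8 ventral genes tested (12 fixed) 5 fell and none rose, with a median of -1.17. Among those that fell, Foxa1 and Foxa2 are also endoderm genes, and Foxa2 and Shh are also notochord genes. RNA of whole aggregates does not tell these sources apart. In the notochord list 3 of 6 tested fell, Foxa2, Shh and T, and none rose (median -0.45). Of these 3 calls 1 held when any 1 library was left out. Olig2, the factor of motor neuron progenitors, went from 1.04, 1.34 and 1.83 CPM to 0.0641, 0.192 and 0.303 CPM (log2 -2.89, SE 0.42, adjusted p = 0.0019). Nkx6-1, a factor of the ventral progenitor domain, went from 9.31, 11.1 and 10.9 to 4.23, 5.33 and 4.45 CPM (log2 -1.16, SE 0.12). Foxa1, of the floor plate, fell from 3.94, 3.88 and 4.48 to 1.73, 1.57 and 1.33 CPM (log2 -1.41). Dox libraries lay under all controls for each of these. The other two, Foxa2 and Shh, are less firm: Foxa2 (log2 -1.34) had adjusted p of 0.061 without control replicate 3 and 0.051 without Dox replicate 3, where 3 ventral calls were left, and Shh (log2 -1.18), at under 1 CPM in every library, lost its call without any single library (0.081 to 0.2).

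Of 10 dorsal genes tested (14 fixed) 7 rose and none fell, with a median of 0.53. The 7 are all those tested of the dorsal progenitor factors. Msx3 went from 1.43, 1.77 and 1.54 CPM to 6.41, 5.49 and 5.54 CPM (log2 1.88, SE 0.15, adjusted p = 6.8e-05). Pax3 went from 20.1, 18.2 and 16.6 to 28.7, 30.2 and 34.1 CPM (log2 0.76, SE 0.085), and Pax7 rose by 0.39. All Dox libraries exceeded all controls for these 3 genes. The calls of Zic1, Zic2 and Zic5 (0.28 to 0.51) were lost without control replicate 3 (adjusted p of 0.091 to 0.18) or Dox replicate 2 (0.062 to 0.11), each of which left 4 dorsal calls, as did the fit of all 18 libraries. Roof plate genes, 3 tested, did not pass. Of the genes between, Gsx2, a factor of dorsal and intermediate progenitors, rose from 0.107, 0.167 and 0.0539 to 0.513, 0.511 and 0.636 CPM (log2 2.35, SE 0.43, adjusted p = 0.0067), while Pax6 fell from 267, 278 and 282 to 199, 208 and 209 CPM (log2 -0.43, SE 0.042, adjusted p = 0.00021).

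Hedgehog pathway genes were called lower in 4 of 14 tested and higher in none, with a median of -0.05. Gli1, a transcription factor that is itself induced by hedgehog signalling and serves as its readout, stood at 15.2, 20.9 and 17.4 CPM in controls and 8.78, 5.75 and 5.6 CPM with Dox (log2 -1.41, SE 0.17, adjusted p = 0.00068). Gas1, a co-receptor, fell by 0.41, from 275, 256 and 263 to 207, 205 and 186 CPM. Ptch1, the receptor and another target, did not pass, at 153, 125 and 138 CPM in controls and 132, 128 and 133 CPM with Dox (log2 -0.08, SE 0.066, adjusted p = 0.53); nor did Smo (-0.02), Gli2 (0.03) or Gli3 (0.07). Leaving out control replicate 3, Dox replicate 2 or Dox replicate 3 left 2 pathway calls each time.

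Neuronal genes rose while some proneural and neuron type factors fell. Of 23 genes tested 7 rose and 3 fell, with a median of 0.25. Elavl3 and Elavl4, RNA-binding proteins of newborn neurons, went from 17.3, 14.2 and 14.2 to 31.9, 35.4 and 42.8 CPM (log2 1.28, SE 0.11) and from 8.13, 6.69 and 6.88 to 14, 17.3 and 19.4 CPM (log2 1.23, SE 0.13). Both had all Dox libraries above all controls. The cytoskeletal genes Map2 (0.86), Stmn2 (0.63) and Tubb3 (0.59) rose as well, so that 5 of 9 genes of neuronal structure were higher and none lower. Neurog2, a proneural factor, fell from 12.6, 14.1 and 14.7 to 3.97, 5.59 and 5.87 CPM (log2 -1.43, SE 0.14, adjusted p = 0.00018), and Pou4f1, of sensory and dorsal neurons, fell by 0.59. Lhx1, of interneurons, at under 1 CPM in every library, was lower too (log2 -1.12, adjusted p = 0.043), a call lost without any single library (0.059 to 0.18). Among 13 neural progenitor genes 4 rose and 2 fell: Fabp7, a fatty acid-binding protein of radial glia, rose from 13.2, 14.6 and 11.9 to 24.5, 27.9 and 28.7 CPM (log2 1.04, SE 0.087), and Sox2 was at 278 to 283 CPM in controls and 258 to 278 CPM with Dox (log2 -0.07). The fit of all 18 libraries left 1 progenitor gene higher and 1 lower, and leaving out control replicate 3, Dox replicate 2 or Dox replicate 3 left 3 and 1.

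In the forebrain, midbrain and hindbrain list 2 rose and 2 fell among 9 tested (median -0.16). Both rises were among 3 hindbrain genes and both falls among 4 midbrain genes. In the fit of all 18 libraries the 2 rises were left and no fall. Egr2, a factor of the hindbrain segments called rhombomeres, went from 0.0716, 0.502 and 0.162 to 0.833, 1.82 and 1.88 CPM (log2 2.62, SE 0.52). It was under 1 CPM in every control, and its adjusted p of 0.01 became 0.065 without control replicate 3. Eph receptors and ephrins, which set segment boundaries and guide axons, had 6 rises and 1 fall among 20. Epha7 went from 56.3, 51.7 and 51.7 to 103, 103 and 105 CPM (log2 0.96, SE 0.049, adjusted p = 5.2e-06), Epha4 rose by 0.87, Ephb1 by 0.86 and the ligand Efnb2 by 0.63, all 4 without overlap. Notch pathway genes, which hold progenitors undifferentiated, had 5 rises and 3 falls among 15; Nrarp, a feedback target, rose from 86.4, 80 and 77.5 to 108, 146 and 142 CPM (log2 0.70), and Heyl fell by 0.45. Notch calls numbered 4 (2 higher, 2 lower) on leaving out control replicate 3 or Dox replicate 2, and 3 on leaving out Dox replicate 3, and in the fit of all 18 libraries Heyl had an adjusted p of 0.22.

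**Figure D4:**
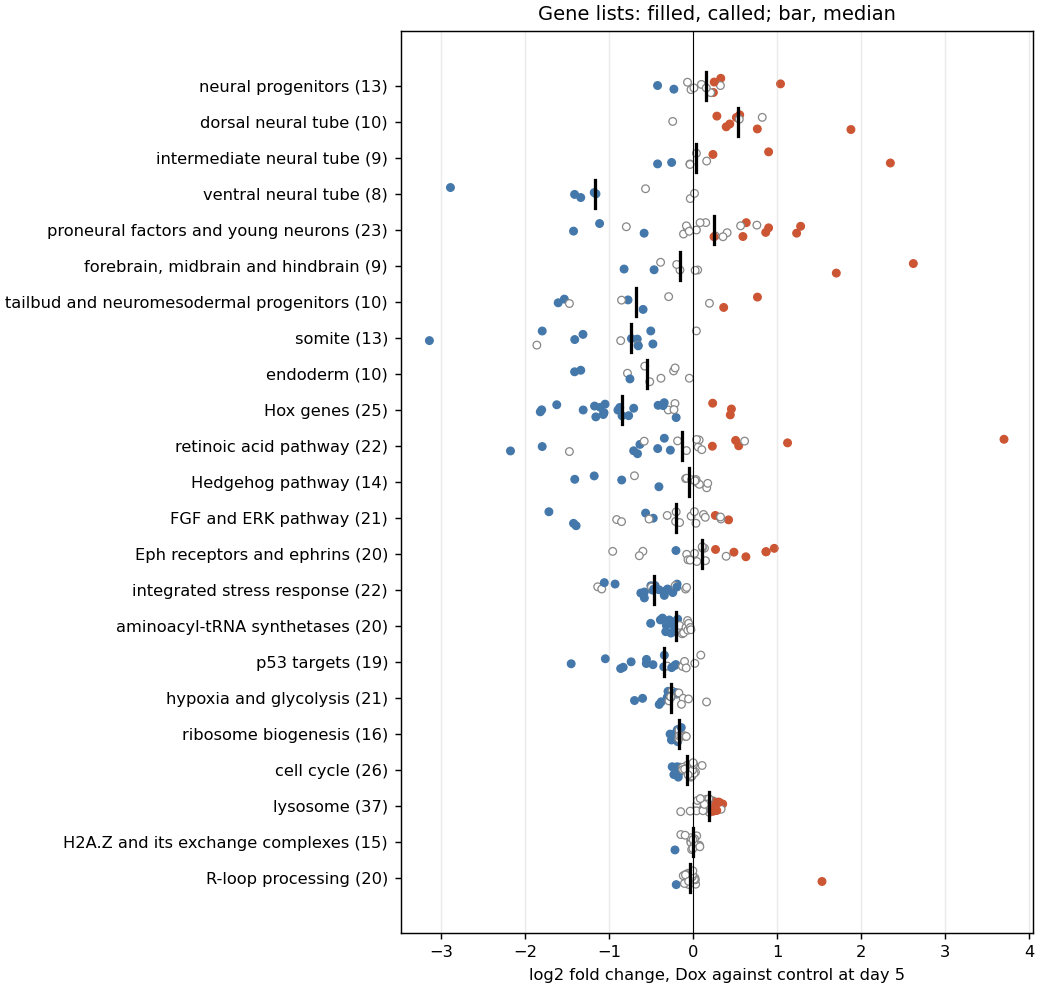
Log2 fold change of each tested member of 23 gene lists, with the number tested in parentheses; red and blue points were called higher and lower, white points were not called, and the bar is the list's median. The ventral neural tube, somite and Hox medians lie at -1.17, -0.74 and -0.85, and the dorsal neural tube median at 0.53.

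Somite genes were lower with Dox: of 13 tested 9 fell and none rose (median -0.74). Beside Pax1 and Aldh1a2 these included Meox2, which went from 2.97, 3.01 and 2.43 to 0.673, 1.57 and 0.908 CPM (log2 -1.41, SE 0.27), Foxc1, from 19.1, 22.4 and 19.9 to 13.7, 11.9 and 11.2 CPM (log2 -0.74, SE 0.09), and Foxc2 (-0.67), all of them transcription factors of paraxial mesoderm. Uncx, of the posterior part of each somite, was at 11.5, 11.7 and 10.9 CPM in controls and 11.5, 13 and 10.4 CPM with Dox (log2 0.04, SE 0.094). The sclerotome genes Nkx3-2 (-1.31) and Pax9 (-0.65) fell with Pax1, but both calls were lost without control replicate 2 (adjusted p of 0.069 and 0.11), control replicate 3 (0.096 and 0.11), Dox replicate 2 (0.11 for both) or Dox replicate 3 (0.15 and 0.086). Somite calls numbered 5 without control replicate 2 or without Dox replicate 3. In the tailbud list, which holds factors of the neuromesodermal progenitors that feed both spinal cord and somites, 4 of 10 fell and 2 rose. Nkx1-2 went from 5.48, 5.32 and 4.91 to 2.43, 1.21 and 1.76 CPM (log2 -1.54, SE 0.21), Cdx2 from 1.4, 2.51 and 2.13 to 0.961, 0.479 and 0.545 CPM (log2 -1.61) and T, which encodes Brachyury, from 5.84, 7.76 and 7.28 to 4.48, 4.25 and 3.48 CPM (log2 -0.78). No Dox library reached the lowest control in any of the 3. With Fgf8, these form the tailbud markers, whose summed level was 11.1 to 13.2 TPM in controls and 5.77 to 8.09 TPM with Dox; the part of the lower somite and tailbud markers in the other differences was not tested. In the fit of all 18 libraries the adjusted p was 0.087, 0.058 and 0.053 for these and 0.06 for Meox2, and the tailbud list kept 3 calls (2 higher, 1 lower). Hes3, a Hes family repressor of neural progenitors, moved the other way, from 103, 101 and 100 to 158, 177 and 181 CPM (log2 0.76, SE 0.054). Among 8 tested genes of presomitic mesoderm and its segmentation clock 3 rose and none fell (median 0.27): Nrarp, as given above, Lfng (0.29) and Dll1 (0.25), all 3 of the Notch pathway too; 1 call was left without control replicate 3, Dox replicate 2 or Dox replicate 3. Of 5 genes of anterior streak and nascent mesoderm 1 rose, Fst (0.33), and 1 fell, Lhx1 as given above, and neither call was left in the fit of all 18 or without any of control replicates 2 and 3 and Dox replicates 1, 2 and 3.

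Endoderm genes fell in 3 of 10 tested and rose in none (median -0.55). Foxa1 and Foxa2 among them are also floor plate genes given above, and Apela, a peptide hormone gene, went from 10, 14.4 and 13 to 7.98, 6.84 and 7.42 CPM (log2 -0.75). The 4 endoderm markers (Sox17, Foxa2, Epcam and Trh) summed to 5.58 to 7 TPM in controls and 4.38 to 7.5 TPM with Dox. These sums overlap, and 1 of the 4 markers was called, lower. FGF signalling, which keeps the tailbud undifferentiated, had 5 falls and 2 rises among 21 genes. Its receptor gene Fgfr4 went from 10.2, 9.94 and 10 to 5.25, 3.23 and 2.75 CPM (log2 -1.43, SE 0.19). Of 12 target and feedback genes tested 2 fell, Etv4 (-1.39) and Dusp6 (-0.57), and 10 did not pass (median -0.09). That is 16.7% called, against 10.6% of all genes tested. Fgf8 itself, at 0.383 to 1.1 CPM over the 6 libraries, did not pass (log2 -0.85, adjusted p = 0.087). The FGF counts were 3 higher and 8 lower with the replicate pairing, 2 and 9 without Dox replicate 1, and 0 and 4 without Dox replicate 2 or in the fit of all 18 libraries. In the Wnt list 2 rose and 1 fell among 19: Wnt7b (0.91), Ccnd1 (0.48) and Wnt5a (-0.60). That is 15.8% called, against 10.6% of all genes tested, with a median of 0.07. Of its 11 target and feedback genes tested 1 was called, Ccnd1. In the bone morphogenetic protein list 2 rose and 1 fell among 15 (20% called, median -0.02). Both rises were among 6 target genes tested: Id4 (1.10) and Id2, from 23.5, 20.4 and 21 to 34.8, 38.2 and 40.5 CPM (log2 0.81, SE 0.072). The ligand gene Bmp7 fell by 0.74 (adjusted p = 0.061 without control replicate 3 and 0.06 without Dox replicate 3).

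Targets of p53, the stress-activated tumour suppressor, fell in 13 of 19 and rose in none (median -0.34). Cdkn1a, which encodes the cell cycle inhibitor p21, went from 120, 129 and 128 CPM to 76.9, 67.3 and 67.6 CPM (log2 -0.83, SE 0.06, adjusted p = 5.2e-05). Plk2, a kinase, went from 39.8, 39.8 and 41.9 to 19.7, 20 and 19.2 CPM (log2 -1.05, SE 0.05, adjusted p = 4.4e-06), and Phlda3, an Akt inhibitor, from 60.8, 63.7 and 63.2 to 33.3, 36.1 and 33.7 CPM (log2 -0.86). All Dox libraries lay well under all controls for these. The death gene Bbc3 (-0.74), the p53-induced cyclin Ccng1 (-0.48) and Bax (-0.26, adjusted p = 0.052 in the fit of all 18 libraries) were also lower. Calls of 11 of the 13 held when any 1 library was left out; Mdm2 and Ei24 lost theirs without control replicate 3 (adjusted p of 0.16 and 0.068) or Dox replicate 3 (0.14 and 0.065), and Mdm2 also without Dox replicate 2 (0.13).

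Genes of the integrated stress response, the program that ATF4 drives when amino acids run short or the endoplasmic reticulum is stressed, fell in 16 of 22 tested and rose in none (median -0.46). Among the enzymes of serine, asparagine and folate metabolism 9 of 10 fell. Asns, asparagine synthetase, went from 156, 181 and 164 CPM to 122, 107 and 96 CPM (log2 -0.62, SE 0.084, adjusted p = 0.0013). Psat1 went from 364, 398 and 380 to 263, 255 and 245 CPM (log2 -0.58, SE 0.047), and Shmt2 fell by 0.51. Of the regulators, Atf3 went from 3.04, 3.21 and 3.13 to 1.76, 1.53 and 1.21 CPM (log2 -1.06, SE 0.17) and Sesn2 from 211, 202 and 206 to 154, 129 and 130 CPM (log2 -0.58). No library of either group crossed into the other for these 5 genes. Atf4 itself fell by 0.24 (adjusted p = 0.024), which was lost without control replicate 2 (0.053), control replicate 3 (0.066), Dox replicate 2 (0.076) or Dox replicate 3 (0.13). The list kept 10 calls without Dox replicate 2 or Dox replicate 3 and 9 in the fit of all 18 libraries, where Atf3 had an adjusted p of 0.064.

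The motif TGATGNAA, the core of the amino acid response element that ATF4 and its partners bind, was searched on both strands of the same 250 bases. It was present in 6 of 20 promoters of the list (30%), against 2.19% of the 10718 promoters. The list was drawn up as the ATF4 program, so a share above that of all promoters adds no evidence. Of the 6, 4 belong to genes that fell, as do 14 of the 20. Those 4 are printed here, with the match in capitals, because they place the element beside the genes' start sites. Positions in GRCm38.p6 are chr6:7693210-7693289 (minus strand) for Asns, chr1:191183400-191183479 (minus) for Atf3, chr11:120643808-120643887 (minus) for Pycr1 and chr14:55540127-55540206 (plus) for Pck2.
Asns: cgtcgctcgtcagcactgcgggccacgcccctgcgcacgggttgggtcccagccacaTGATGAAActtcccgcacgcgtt
Atf3: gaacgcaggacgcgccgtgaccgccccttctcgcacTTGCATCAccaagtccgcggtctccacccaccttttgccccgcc
Pycr1: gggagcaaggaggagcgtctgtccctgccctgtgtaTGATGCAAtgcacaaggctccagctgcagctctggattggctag
Pck2: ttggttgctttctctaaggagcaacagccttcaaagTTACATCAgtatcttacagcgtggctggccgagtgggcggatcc
In Atf3 and Pck2 the motif is on the opposite strand, so the capitals are its reverse complement. The match begins 23 bases before the start in Asns, 110 in Atf3 and 103 in both Pycr1 and Pck2. Pycr1, of proline synthesis, went from 40.2, 50.5 and 44.5 to 35.2, 33.2 and 30.2 CPM (log2 -0.46, SE 0.085, adjusted p = 0.0077). Pck2, the mitochondrial PEP carboxykinase, went from 24, 28.9 and 24.8 to 22.5, 20.1 and 18.6 CPM (log2 -0.35), and its call was lost without control replicate 2 (adjusted p = 0.083), control replicate 3 (0.081), Dox replicate 2 (0.1) or Dox replicate 3 (0.14). Of the 14 genes of the list that fell and have an entry, 4 held a match (28.6%), and the match was present in 2.1% of promoters of all genes that fell. The other 2 promoters with a match, of Chac1 (log2 -1.14, adjusted p = 0.056) and Vldlr (-0.50, 0.062), belong to genes that did not pass.

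Aminoacyl-tRNA synthetases, which load amino acids onto tRNA, fell in 11 of 20 and rose in none (median -0.21). Yars went from 165, 177 and 167 to 131, 116 and 111 CPM (log2 -0.51, SE 0.062, adjusted p = 0.00074), Cars fell by 0.39 and Mars by 0.37. The count was 7 without control replicate 3 and 6 without Dox replicate 3. Genes of glycolysis and hypoxia fell in 12 of 21 and rose in none (median -0.26). Slc2a1, the glucose transporter GLUT1, went from 907, 1027 and 963 to 758, 593 and 555 CPM (log2 -0.60, SE 0.10, adjusted p = 0.004), and Ldha, lactate dehydrogenase, from 820, 980 and 840 to 725, 633 and 635 CPM (log2 -0.41). Only these 2 kept the call when any 1 library was left out: leaving out control replicate 2 gave 6 calls, control replicate 3 gave 4, Dox replicate 2 gave 3, Dox replicate 3 gave 2, and the fit of all 18 libraries gave 7.

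Several groups shifted by less than 0.3 on the log2 scale at the median and rest on few libraries. Lysosomal genes, enzymes and membrane proteins that break down and recycle cell material, rose in 12 of 37 and fell in none (median 0.19). Tpp1, a peptidase, went from 62, 62.8 and 60.7 to 73.8, 76.4 and 79.4 CPM (log2 0.31, SE 0.046, adjusted p = 0.0024), and the membrane protein gene Lamp2 rose by 0.29 (0.22 in the fit of all 18 libraries). Lysosomal calls numbered 21 with the replicate pairing and 3 in the fit of all 18; leaving out control replicate 3 gave 2, Dox replicate 2 gave 5 and Dox replicate 3 gave 4. Ribosome biogenesis genes fell in 9 of 16 and rose in none (median -0.17): Bop1 went from 95.1, 99 and 96.3 to 80.9, 83 and 78.6 CPM (log2 -0.26, SE 0.044). Leaving out control replicate 3 gave 3 calls, Dox replicate 2 gave 4 and Dox replicate 3 gave 1, and the fit of all 18 gave 4.

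In the cell cycle list 9 of 13 S phase genes fell, by 0.15 to 0.25, and none of 13 mitotic genes passed. No cell cycle call held in every fit that left out 1 library, and none was left on dropping control replicate 3, Dox replicate 2 or Dox replicate 3; dropping control replicate 2 gave 5, dropping Dox replicate 1 gave 3, and the fit of all 18 gave 1. Of 13 mRNAs encoded by mitochondrial DNA 5 rose and none fell (median 0.15). mt-Cytb went from 3566, 3950.3 and 3889 to 4657, 4796 and 4633 CPM (log2 0.30, SE 0.045), and mt-Nd2 rose by 0.30. Only 3 calls were left in each of the fits without control replicate 1, control replicate 3, Dox replicate 2 or Dox replicate 3 and in the fit of all 18. The share of all counts from the mitochondrial genome moved with them, from 2.72, 2.8 and 2.87% in controls to 3.05, 3.09 and 3.08% with Dox; its part in other differences was not tested.

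Of 20 genes of R-loop processing, Rnaseh1 among them, 10% were called, and of 15 genes of H2A.Z and its exchange 6.67%. Among all genes tested the share was 10.6%, so these counts are near what any genes would give. Of 20 R-loop genes 1 other was called, the helicase gene Ddx21 at 321, 284 and 300 CPM in controls and 277, 256 and 252 CPM with Dox (log2 -0.20, adjusted p = 0.044), and that call was lost without control replicate 1 (0.092), control replicate 3 (0.14), Dox replicate 2 (0.15) or Dox replicate 3 (0.19). Genes of the other nuclear ribonuclease H, RNase H2, Rnaseh2a (log2 -0.06, SE 0.057), Rnaseh2b (-0.12, SE 0.050) and Rnaseh2c (-0.09, SE 0.068), did not pass. The H2A.Z genes H2afz (log2 -0.10, SE 0.051, adjusted p = 0.29) and H2afv (0.08, SE 0.063, adjusted p = 0.51) did not pass either. Of 13 genes of the SRCAP, p400 and INO80 type exchange machinery 1 fell, Ruvbl2, from 213, 232 and 226 to 190, 193 and 194 CPM (log2 -0.22, SE 0.043, adjusted p = 0.01), and it was lost without control replicate 3 (0.072) or Dox replicate 3 (0.057); the replicate pairing gave 3 calls. Jarid2, a partner of Polycomb repressive complex PRC2, was higher, at 56.1, 50.6 and 50.6 CPM in controls and 73, 66.5 and 72.2 CPM with Dox (log2 0.43, SE 0.059, adjusted p = 0.0014). In all 3 Polycomb or MLL genes rose and 1 fell among 21; the counts were 6 and 1 with the replicate pairing, 1 and 0 on dropping control replicate 3 or Dox replicate 3 and in the fit of all 18, and 2 and 0 on dropping Dox replicate 2.

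In the comparison of all 6 libraries no call was made among 16 genes of cholesterol synthesis, 11 replication-dependent histone genes, 3 interferon response genes, 4 surface ectoderm genes, 3 extraembryonic genes or 4 germline genes that were tested, by edgeR, DESeq2 or limma-voom; an unadjusted p under 0.05 was found for 1 cholesterol gene and 1 germline gene. Under the alternatives, 1 cholesterol gene was called lower with the replicate pairing, with no filter and without Dox replicate 1, and 1 germline gene was called higher with the pairing and 1 lower without control replicate 1. Of 7 naive pluripotency genes tested only Tbx3 was called, 14.3% against 10.6% of all genes tested. Tbx3, which is also active in mesoderm, went from 2.97, 4.11 and 3.77 to 1.31, 1.6 and 1.51 CPM (log2 -1.30, SE 0.18). Of 9 core pluripotency genes only Lin28a was called, a share of 11.1% (log2 0.19, adjusted p = 0.018, and 0.11 without control replicate 3 or 0.072 without Dox replicate 2). The core list held 3 calls with the replicate pairing, all higher. Pou5f1, at 4.3, 3.95 and 1.86 CPM in controls and 5.93, 4.34 and 4.15 CPM with Dox, was not called (log2 0.53, adjusted p = 0.27).

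Levels at the earlier days put the day 5 differences in time. In deposited TPM, Rnaseh1 averaged 28.5 ± 1.6 (SD, n = 3) in controls and 158 ± 22.4 with Dox at day 0, 25.8 ± 0.97 and 78.7 ± 1.23 at day 3, and 23.2 ± 0.675 and 70.9 ± 4.02 at day 5. The difference made by Dox at day 5 minus that at day 3 was -0.01 on the log2 scale for Rnaseh1 (SE 0.075, adjusted p = 0.98, edgeR on the 12 libraries of both days). Hprt averaged 13.8 ± 0.552 and 370 ± 58.2 TPM at day 0, 25 ± 1.4 and 109 ± 3.19 TPM at day 3, and 27.6 ± 0.541 and 271 ± 16.8 TPM at day 5. Its difference was larger at day 5 than at day 3 by 1.13 (SE 0.081, adjusted p = 2.5e-06).

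Several of the genes with the largest day 5 changes were low at day 3 in both groups. Cyp26b1 averaged 0.0267 TPM in controls and 0.0467 TPM with Dox at day 3, and 0.683 ± 0.115 and 9.07 ± 3.36 TPM at day 5. Aldh1a2 was at 0.123 ± 0.061 and 0.117 ± 0.025 TPM at day 3 and 9.75 ± 1.16 and 2.87 ± 1.22 TPM at day 5, so that its level was higher at day 5 than at day 3 in both groups. For neither did the difference between days pass the test (adjusted p of 0.34 and 0.24). Pax1 was at 0.107 ± 0.025 and 0.123 ± 0.047 TPM at day 3 and at 3.03 ± 0.103 and 0.35 ± 0.087 TPM at day 5, and there the difference between days passed, at -3.1 (SE 0.48, adjusted p = 0.0015). Gli1 was already expressed at day 3, at 12.5 ± 0.982 and 12.6 ± 0.977 TPM, and stood at 7.68 ± 0.862 and 2.88 ± 0.688 TPM at day 5. Cdkn1a was at 222 ± 4.6 and 208 ± 3.22 TPM at day 3 and at 105 ± 2.58 and 60.5 ± 5.87 TPM at day 5. The genes of this paragraph were picked by their day 5 differences, and the test between days reuses the day 5 libraries. Over all genes, 563 of 16733 tested had a difference between the days.

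**Figure D5:**
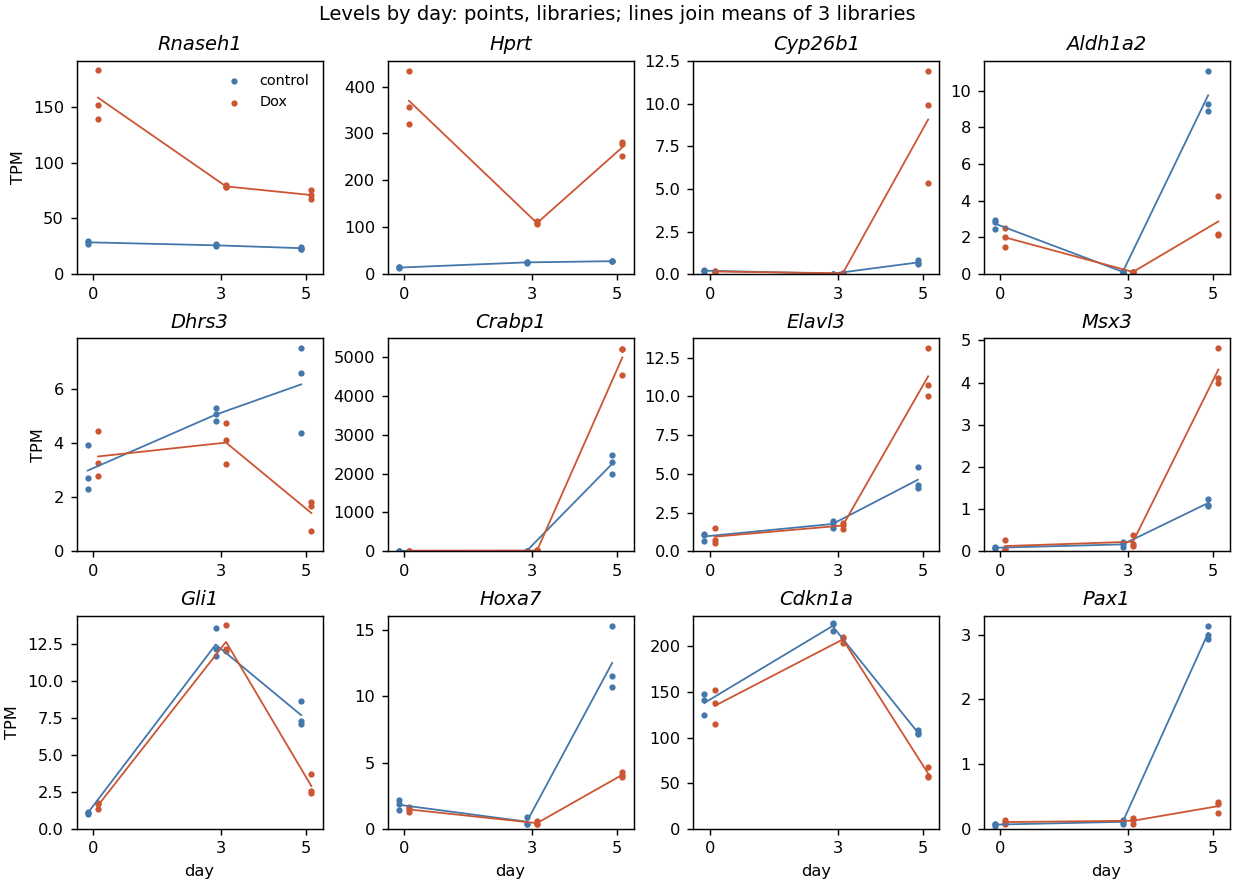
Deposited TPM of 12 genes at days 0, 3 and 5, points for libraries and lines through the means of 3 (blue, control; red, Dox), each panel with its own axis from 0. Rnaseh1 and Hprt are apart at every day, whereas Cyp26b1, Aldh1a2, Msx3, Hoxa7 and Pax1 overlap or nearly overlap at day 3 and are apart at day 5. By edgeR's test of the difference between days Pax1 passed, and Cyp26b1, Aldh1a2, Msx3 (adjusted p = 0.15) and Hoxa7 (0.14) did not.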

How the data were processed

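The data are gene tables of poly(A) RNA from 18 libraries, of which the 6 of day 5 were compared. Per the submitters' processing notes the authors used Trimmomatic, STAR 2.7.10a, RSEM 1.3.3, DESeq2 1.38.2 and the GRCm38 build; roles, annotation release and strand setting are not given in the sources used here. Per the file headers the deposited tables are RSEM gene results, holding expected counts (estimated read counts that split shared reads between genes) and TPM, a level scaled for transcript length and library total by the authors' tool, used here for marker sums and levels by day. Of the 55401 gene IDs, 55141 were matched to the mouse GENCODE vM21 annotation for symbols, coordinates and gene types.

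Expected counts were rounded, genes were kept by edgeR's filterByExpr (15340 genes), libraries were scaled by TMM, and Dox was tested against control with edgeR 4.0.16 (glmQLFit and glmQLFTest, R 4.3.3) with Benjamini-Hochberg adjustment at 0.05. CPM uses the scaled library sizes. The main comparison has no replicate term. The labels tag the replicate number as a batch, which is where the pairing comes from; deviations from group means correlated at 0.0444 to 0.0716 between libraries of the same number and at -0.0655 to 0.0194 between others. Tried beside it were a replicate term (block), limma-voom 3.58.1, DESeq2 1.42.0, other scalings and filters, a fit of all 18 libraries and leaving out each library. The steps were tested on simulated data with known changes.

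Genes named are Rnaseh1 and Hprt, in each direction the 12 called genes of largest change whose more expressed group averaged 5 CPM or more and whose groups did not overlap, and up to 4 called members of each gene list (or, with none called, the 2 most expressed). The comparison and the lists were chosen with earlier results of these data known, and further list members were named after their values were seen. Some genes that the rule names are not reported here. CPM of different genes are not compared, since they are not scaled for length. Coordinates are GRCm38; promoter sequences are from RefSeq (GRCm38.p6), available for 10718 tested genes.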

Additional observations from a re-analysis of the deposited data

Results flagged for a closer look

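Of the 23 genes with the largest changes at day 5 that are described above, 11 are given here because the difference made by Dox at day 5 departed from that at day 3 by edgeR's test of the difference between days over the 12 libraries of both days (log2 day 5 minus day 3, adjusted over 16733 genes). It was larger at day 5 for Dcc (1.76, SE 0.458, adjusted p = 0.046), Slc44a5 (1.75, SE 0.156, adjusted p = 1.1e-05) and Grm4 (1.68, SE 0.219, adjusted p = 0.00037). The same held for Pde1b (1.55), Atp1b2 (1.48), Lix1 (1.3) and Hprt (1.13). It was more negative at day 5 for Pax1 (-3.1, SE 0.483, adjusted p = 0.0015), Dhrs3 (-1.79, SE 0.331, adjusted p = 0.0057), Cabp1 (-1.5, SE 0.167, adjusted p = 0.00013) and Nkx1-2 (-1.33, SE 0.202, adjusted p = 0.0013). Apart from Rnaseh1 and Hprt, the 23 were picked for large differences at day 5, and this test uses the same day 5 libraries. That choice favours a larger difference at day 5, so the direction the 11 share adds no evidence.

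Genes named above from the gene lists passed the same test as well, among them Plk2 (-1.03, SE 0.0633, adjusted p = 4.9e-07), Epha7 (1.03, SE 0.0806, adjusted p = 4.5e-06), Cdkn1a (-0.76, adjusted p = 1.1e-05), Gli1 (-1.47, adjusted p = 0.00018) and Elavl3 (1.22, adjusted p = 0.0008). These too were picked by their day 5 differences, and they were not refitted with libraries left out.

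Among the 11, Dcc lost its call in most of the alternatives: its adjusted p rose to 0.11 in the fit of all 18 libraries and was above 0.05 in 10 of the 12 fits that left out 1 library. Nkx1-2 had an adjusted p of 0.5 in the fit of all 18 libraries. For Cyp26b1 (2.73, SE 1.31, adjusted p = 0.34) and Aldh1a2 (-1.76, SE 0.711, adjusted p = 0.24), both near 0 at day 3, the difference between days did not pass with all 12 libraries. Without Dox replicate 1 of day 5 it did, at adjusted p of 0.026 and 0.017.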

How the results depend on the processing

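The count of 1628 genes called (849 higher, 779 lower) stayed within 1.5 times under DESeq2, limma-voom, other scalings and other filters. With the replicate block, which pairs libraries by their number, it was 2658 (1282 higher, 1376 lower), and 1626 of the calls without the block were among them. In the fit of all 18 libraries it was 843 (426 higher, 417 lower). Leaving out 1 library gave 728 to 1740 calls (373 to 886 higher, 355 to 854 lower), the fewest without control replicate 3 and the most without control replicate 1. Over named genes and alternatives, 1895 values kept their side of the threshold, 216 lost the call, 1 gained it (Kit, adjusted p = 0.02 with the block) and 0 reversed. For the day 5 minus day 3 differences these numbers were 329, 12, 9 and 0. Without scaling beyond library size the calls split into 1011 higher and 629 lower (61.6% higher), and all genes shifted by a median of 0.0261 on the log2 scale.

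Genes at under 1 CPM, such as Shh, Hoxa6 and Lhx1, rest on few reads. The labels do not say whether replicates were separate cultures, and the study used 1 line, so an effect of Dox itself and one of RNase H1 cannot be told apart here. The day 5 minus day 3 alternatives that left out libraries were added after seeing the data.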

Other observations

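Imprinted genes, expressed from 1 parental allele and many of them growth regulators, had 5 rises and 4 falls among 18 tested (median -0.02). Grb10, an inhibitor of insulin-like growth signalling, went from 5.94, 4.58 and 6.15 to 2.34, 2.52 and 2.06 CPM (log2 -1.27, SE 0.16, edgeR adjusted p = 0.00076). Peg10 went from 1245, 963 and 1137 to 658, 610 and 643 CPM (log2 -0.81), and the growth factor gene Igf2 from 185, 182 and 175 to 134, 107 and 98 CPM (log2 -0.68). Nnat, of neural tissue, went the other way, from 424, 502 and 482 to 570, 764 and 776 CPM (log2 0.58). Groups did not overlap in any of these 4. With the replicate block 7 imprinted genes were higher and 8 lower, and in the fit of all 18 libraries 1 and 4. The heparan sulphate proteoglycan gene Gpc3 fell from 152, 183 and 179 to 95.6, 81.7 and 79.8 CPM (log2 -0.997, SE 0.084), while Gpc2 rose by 0.28.

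Collagen and matrix genes had 6 rises and 6 falls among 22 tested (median -0.01): Sparc rose from 37.3, 40.7 and 43.7 to 61.2, 69.5 and 74.9 CPM (log2 0.75), and Col2a1 rose by 0.43. The counts were 3 higher and 1 lower without control replicate 3, 4 and 2 without Dox replicate 3, and 4 and 2 in the fit of all 18 libraries. In the list of the epithelial-mesenchymal switch 2 rose and 1 fell among 14 tested (median -0.02). The fall was of Cdh1, epithelial cadherin, from 5.69, 6.66 and 6.12 to 3.84, 2.59 and 3 CPM (log2 -0.97). Of the 5 epithelial genes tested 1 other was called, and it rose. Among neural crest genes Tfap2b rose (log2 1.85), staying near 1 CPM with Dox at 1.15, 1.12 and 1.15 CPM, and Ets1 fell (log2 -0.71).

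Abundant genes outside the lists also moved, named here after their values were seen. Ccnd2, cyclin D2, went from 2006, 1837 and 2047 to 1157, 889 and 908 CPM (log2 -0.996, SE 0.091), while Ccnd1 rose as given above. Myc went from 32.7, 32.5 and 30.8 to 16, 12.7 and 11.2 CPM (log2 -1.27, SE 0.10), and Fndc5 from 110, 137 and 130 to 57.9, 43.8 and 42.3 CPM (log2 -1.39). Thbs1, thrombospondin 1, rose from 30.5, 24.2 and 27.4 to 57, 64.2 and 71.9 CPM (log2 1.23).

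Promoters were compared by base composition, from 250 bases before to 50 after the start as RefSeq gives them. An entry was found for 636 of the 849 genes that rose, 572 of the 779 that fell and 10718 of the 15340 tested. All medians here are over genes with an entry. Median GC content was 60.8% for genes that rose, 62.3% for genes that fell and 61.3% for all. The median observed over expected CpG ratio was 0.645 for genes that rose, 0.75 for genes that fell and 0.754 for all. Genes that rose spanned a median of 34.1 kb, those that fell 19.9 kb and all tested genes with an entry 24.3 kb. These are descriptions with no test, since genes are not replicates.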
